A study of Mus musculus with 36 samples.

Results

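The genes for the DNA methyltransferases Dnmt1, Dnmt3a and Dnmt3b, for Dnmt3l and for Uhrf1 were followed by RNA-seq through 8 days of differentiation of Xmas mESCs (mouse embryonic stem cells). These 5 genes were chosen by name out of the 25965 genes measured, and all 5 passed the filter on low values, which left 14612 genes tested (1 RPM, a read count scaled to library depth, in at least 4 libraries). The 5 genes, and the gene lists used below, were chosen with earlier results of these data known. Xmas mESCs are female C57/Bl6 lines derived so that the X chromosomes bear different reporters at Hprt, GFP on one and mCherry on the other. Every group shares this origin. Whether all cells of a library still carried both X chromosomes is not stated. The paper reports that cells with a lone reporter increase in culture, likely as XO cells. Sorted cells with a lone reporter carried only the matching allele. RNA was taken daily. Over the first days the cells were weaned stepwise from 2i and LIF, which hold mESCs in the naive state, into serum medium lacking LIF. They then stayed in that medium without passage, so the later libraries come from after the end of weaning. Each of 9 days (day 0 to day 8) has 4 libraries, 36 in all, and on every day they are the line X14 labelled double, X14 labelled single, X18 labelled double and X18 labelled single. The labels do not explain double and single, and the words serve here only as names. The 4 libraries of a day are therefore 4 different cultures, nothing says how far the cultures were separate derivations, and p-values measure the spread between them.

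DNA methylation in mammals is carried by cytosines in CpG dinucleotides. Dnmt3a and Dnmt3b place the mark on unmethylated DNA, Dnmt3l has no catalytic activity and stimulates both, and Dnmt1 copies the mark to the new strand after replication, to which it is guided by Uhrf1, a protein that reads hemimethylated CpG and the histone H3 tail. Naive mESCs in 2i are known for low global methylation, and de novo methylation accompanies the passage of the epiblast to the primed state around implantation.

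The libraries held 612740 to 2445826 reads in genes (median 1297944), with X14 double of day 5 as the shallowest. The level of X-linked over autosomal genes was higher in double than in single libraries by 0.25 to 1.05 (log2) in both lines on days 1 to 8 and by 0.86 in X18 on day 0. In X14 on day 0 the difference was −1.14, so the libraries labelled X14 double and X14 single of day 0 go against their labels. Results against day 0 whose call changes without these libraries are given both ways. Without them day 0 holds only X18 libraries, set against both lines on the later days. The fits over days do not use the label, so leaving these libraries out does not correct a label. Which of the results given both ways is nearer the truth was not tested. Comparisons of double with single used days 1 to 8. Pluripotency markers, Pou5f1 among them, summed to 2468 to 4113 RPM in the day 0 libraries and 196 to 686 RPM in those of day 8. Naive markers (Zfp42, Klf4, Esrrb and others) summed to 848 to 2805 RPM at the start and to 55.9 to 282 RPM on day 8. Primed markers (Fgf5, Otx2, Pou3f1 and others) summed to 38.0 to 109 RPM at the start, 771 to 1173 RPM by day 4 and 189 to 457 RPM at the end. Trophoblast markers went from 80.2 to 130.1 RPM at the start to 175 to 554 RPM at the end, with Elf5 at 0 reads on days 0 and 4. Fibroblast and mesenchyme markers went from 0.854 to 14.4 RPM to 77.5 to 112 RPM over the same time, with Col1a2 and Col3a1 at 0 reads on day 0, and neural markers from 94.6 to 157 RPM to 58.3 to 93.3 RPM, with Zic1 at 0 reads on both days. In contrast, visceral endoderm markers stayed at 0 to 7.77 RPM on days 0, 4 and 8, with Ttr and Apoa1 at 0 reads. In bulk RNA a change in the number of cells of a type and a change in RNA per cell cannot be told apart, and the part of these populations in the results below was not tested.

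The 5 genes lie on different chromosomes (mm10, counted from 1). Dnmt3b is at chr2:153649450-153687730 on the plus strand, Dnmt1 at chr9:20907206-20959888 on the minus strand, Dnmt3l at chr10:78041947-78063622 on the plus strand, Dnmt3a at chr12:3806007-3914443 on the plus strand and Uhrf1 at chr17:56303321-56323486 on the plus strand. RefSeq (GRCm38.p6) gives 12 promoter windows for the 5 genes, each reaching from 250 bases before a transcription start to 50 bases after it. The values are summed over whole genes, so which start was used, and whether Dnmt3a was made as its long protein or as the short one from an internal start, was not measured. CpG content differed between the genes. The window of Dnmt3b holds 30 CpGs, more than 88.3% of the 32851 windows of all genes, against a median of 7 over all windows. In the order of their starts the Dnmt3a windows hold 46, 47 and 18 CpGs and the Dnmt3l windows 6, 4 and 3. The 30 bases just before the start are shown for these 3 genes because each peaked on day 3 or day 4 below, with CpGs in capitals:
Dnmt3b, chr2:153649419-153649448, plus strand: gctacaagggcagCGgCGcCGccccctccc
Dnmt3a, first start, chr12:3806950-3806979, plus strand: ccCGgCGgaggaggCGgagagagggagCGc
Dnmt3l, first start, chr10:78042257-78042286, plus strand: cttaagctgtgatgggctgtttccttcttc

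The 2 Uhrf1 windows hold 12 and 33 CpGs and the 3 Dnmt1 windows 2, 12 and 33. The Uhrf1 window and the Dnmt1 window with 33 CpGs contain an 8-base word of the kind bound by E2F factors, the regulators of S phase genes. The words searched on both strands were TTTCGCGC, found in 0.323% of the 32851 windows, and TTTGGCGC, found in 0.514%. The Uhrf1 window holds TTTCGCGC as written, and the Dnmt1 window holds it on the other strand and TTTGGCGC as written. The other 10 windows of the 5 genes hold neither word, which says nothing about binding of any factor. The words are in capitals:
Uhrf1, start 2, chr17:56304117-56304146, plus strand: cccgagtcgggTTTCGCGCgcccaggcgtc
Dnmt1, start 3, chr9:20952824-20952853, minus strand: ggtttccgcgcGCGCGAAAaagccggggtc

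Levels are given in RPKM, reads scaled to library depth and to the length of all exons of a gene merged. Comparisons between genes depend on that length. A gene was called changed between days when the adjusted p was under 0.05 and the log2 fold change at least 1 either way. Dnmt3b, Dnmt3a and Dnmt3l rose from day 0 to a peak on day 3 or day 4 and then fell, whereas Dnmt1 and Uhrf1 moved over a narrower range. Of the 5 genes, 1 was called higher than day 0 on day 1, 2 on day 2, 3 on each of days 3 to 6 and 2 on days 7 and 8; none was called lower. The shares of all genes called in either direction on days 1 to 8 were 0.0684%, 2.96%, 8.89%, 18.6%, 26.8%, 33.4%, 35.4% and 35%. On day 4, when 12.2% of all genes were called higher and 6.4% lower, the called genes among the 5 were Dnmt3b, Dnmt3a and Dnmt3l. Without the X14 libraries of day 0 the counts of the 5 genes were 2 for day 1, 5 for days 2 and 3, 4 for day 4, 3 for day 5, 4 for days 6 and 7 and 3 for day 8. The shares of all genes rose as well, to 5.61%, 23.2%, 24.9%, 29.8%, 33.7%, 41.8%, 43.1% and 42.3%.

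**Figure D1:**
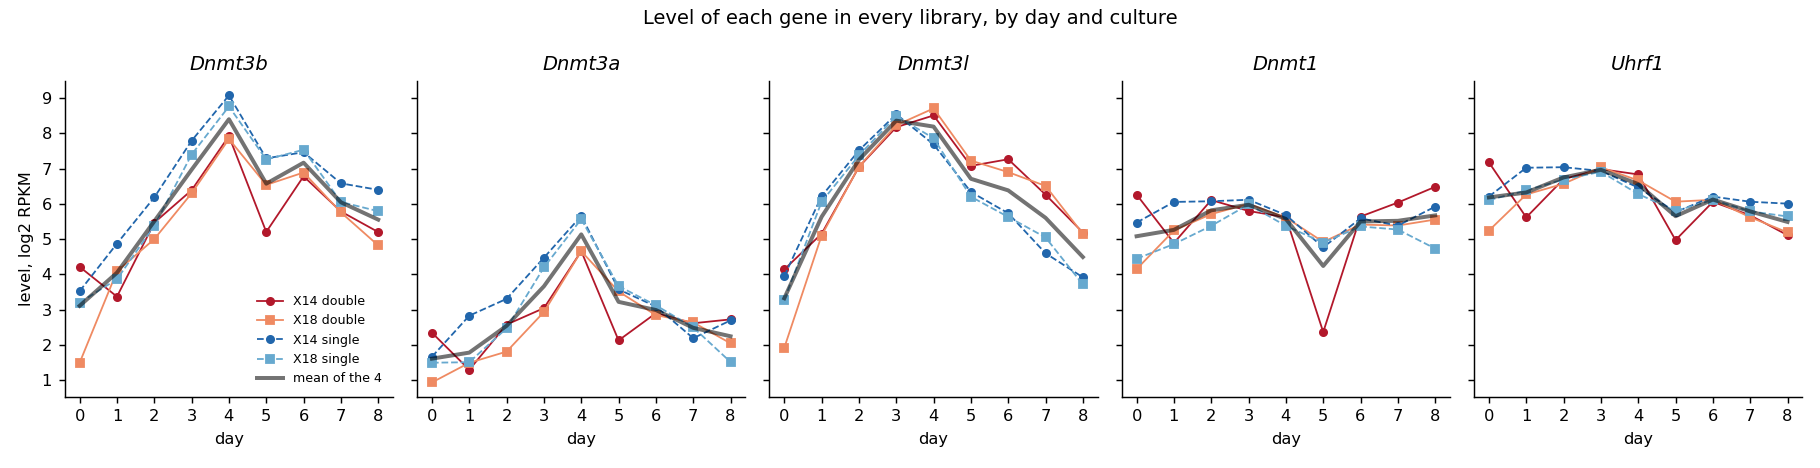
Level of each gene (log2 RPKM, vertical axis) by day (horizontal axis) in every library, joined by line and label, with the mean of the 4 libraries as a thick grey line. Dnmt3b and Dnmt3a peak on day 4 in all 4 cultures, Dnmt3l peaks on day 3 in the single cultures and on day 4 in the double cultures, and the low Dnmt1 value of day 5 is the X14 double library at 5.15 RPKM.

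Dnmt3b, the main de novo enzyme of the epiblast, reached the highest level of the 5 genes. On day 0 it was at 18.6 RPKM in X14 double, 11.5 in X14 single, 2.82 in X18 double and 9.19 in X18 single. In the same order of labels the level was 243, 541, 229.5 and 435 RPKM on day 4 and 36.8, 84.4, 28.3 and 55.5 RPKM on day 8. Day 4 was the highest day in 4 of 4 cultures, all 4 of its libraries lay above every library of the other days, and all 4 libraries of day 8 lay above those of day 0. Over day 0 the log2 fold change was 2.40 ± 0.46 (SE, n = 4 per day) by day 2 and 3.86 by day 3. On day 4 it was 5.29 ± 0.46 (adjusted p = 1.6e-10), or 39.2-fold. It then fell by 1.83 on the log2 scale within a day (adjusted p = 0.0059), reached 110.2 to 186 RPKM on day 6 and was still 2.45 above day 0 at the end (adjusted p = 5.8e-05). Without the X14 double library of day 5 the step to day 5 was −1.37 (adjusted p = 0.039). The last step before the peak, 1.43, had an adjusted p of 0.062, and 0.0045 with the culture as a block.

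Ordered by mean level the days ran 4, 6, 3, 5, 7, 8, 2, 1 and 0 for Dnmt3b, and 6 of the 8 neighbouring days overlapped in their range, the exceptions being day 4 over day 6 and day 2 over day 1. The day 2 call was lost without the X18 double culture (2.03, adjusted p = 0.091) and without the X18 single culture (2.47, adjusted p = 0.083). Without the X14 libraries of day 0 the fold change on day 4 was 6.05 and Dnmt3b was already called on day 1 (1.70, adjusted p = 0.041).

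Dnmt3a, the de novo enzyme also used by later somatic lineages and germ cells, also peaked on day 4, at a lower level. It stood at 5.09, 3.17, 1.91 and 2.82 RPKM on day 0 (X14 double, X14 single, X18 double, X18 single), at 25.3, 50.6, 25.2 and 47.5 RPKM on day 4 and at 6.61, 6.48, 4.13 and 2.86 RPKM on day 8. Day 4 again lay above all other days without overlap, and the ranges of day 8 and day 0 overlapped. Over day 0 the log2 fold change was 2.05 ± 0.40 by day 3 (SE, n = 4 per day; adjusted p = 0.00066). On day 4 it was 3.53 ± 0.40 (adjusted p = 3.1e-08), or 11.5-fold. Dnmt3a then fell by 1.91 on the log2 scale in the step to day 5 (adjusted p = 0.00091), and at the end it stood at 0.63 over day 0, with an adjusted p of 0.19. The call on day 6 (1.38) was lost without the X18 double culture (adjusted p = 0.056). That of the step between days 3 and 4 (1.47, adjusted p = 0.019) was lost without the X14 double, X18 double or X18 single culture (1.39 to 1.51, adjusted p = 0.053 to 0.13). The value of day 2, 0.93 (adjusted p = 0.15), became 1.33 without the X14 libraries of day 0 (adjusted p = 0.033), and that of day 7, 0.87 (adjusted p = 0.069), became 1.27 (adjusted p = 0.026). Exons of Dnmt3a share 133 bases with the antisense gene Dnmt3aos, and since it is not stated whether counting used the strand, such reads cannot be told apart.

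Dnmt3l, the cofactor, was called on day 1, when neither enzyme it stimulates was. It was at 17.7, 15.5, 3.78 and 9.71 RPKM on day 0 (X14 double, X14 single, X18 double, X18 single) and already at 35.6, 74.5, 34.4 and 66.7 RPKM on day 1, with no overlap between these days. On day 3 it reached 289, 373, 301 and 360.1 RPKM. The values of day 4 were 365, 206, 418 and 233 RPKM, and those of day 8 were 36.5, 15.1, 35.5 and 13.1 RPKM. Over day 0 the log2 fold change was 2.31 ± 0.44 after 1 day (SE, n = 4 per day; adjusted p = 0.018) and 3.93 by day 2. It reached 5.04 ± 0.44 on day 3 (adjusted p = 9.9e-10), was 4.87 on day 4 and stood at 1.17 at the end (adjusted p = 0.028). Days 3 and 4 overlapped, and both lay above every other day. Whether its fold change on day 1 differed from that of Dnmt3b or Dnmt3a was not tested.

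The day 1 call of Dnmt3l was lost without the X14 single (2.33, adjusted p = 0.12), X18 double (2.02, adjusted p = 0.23) or X18 single culture (2.15, adjusted p = 0.44), and rose to 3.03 (adjusted p = 0.00058) without the X14 libraries of day 0. The day 8 call was lost without the X18 double culture (0.48, adjusted p = 0.43), and the value without the X14 libraries of day 0 was 1.89 (adjusted p = 0.0023). The call of the fall after day 4, −1.48 (adjusted p = 0.017), was lost without the X14 single (adjusted p = 0.052) or X18 single culture (adjusted p = 0.095). Exons of Dnmt3l share 67 bases with exons of Aire on the opposite strand, and such reads cannot be told apart if counting did not use the strand. Aire ranged from 1.07 to 3.75 RPKM at the start, from 23.4 to 37.1 RPKM at day 4 and from 0 to 2.04 RPKM at day 8, below the Dnmt3l values of the same days.

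**Figure D2:**
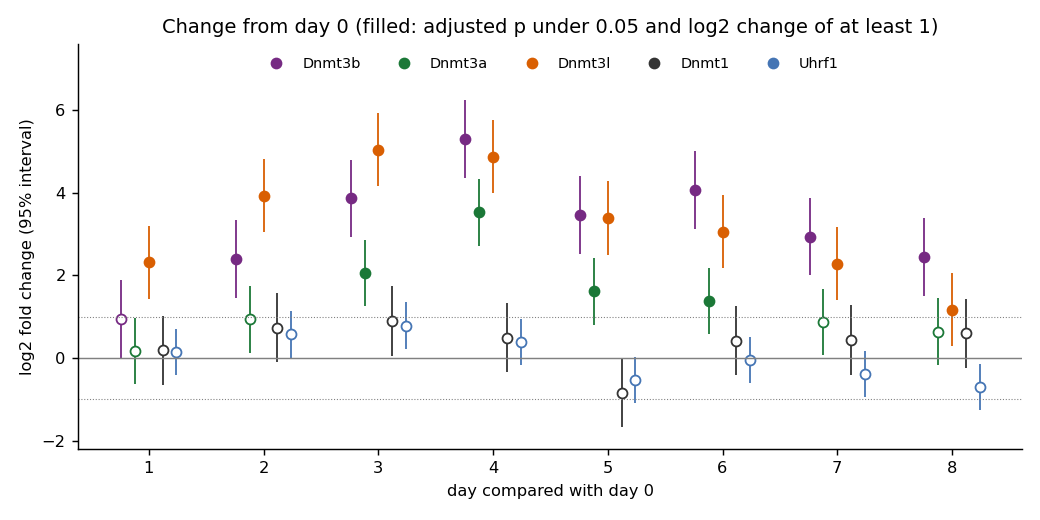
Log2 fold change against day 0 (vertical axis) for each gene on days 1 to 8 (horizontal axis), with 95% intervals from the limma fit over 36 libraries and filled points for called changes. The 3 de novo genes stand at 3.53 to 5.29 on day 4, while the points of Dnmt1 and Uhrf1 are open on every day.

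Dnmt1, the maintenance enzyme, was not called against day 0 on any day. On day 0 it was at 76.9, 44.4, 17.8 and 21.8 RPKM (X14 double, X14 single, X18 double, X18 single) and on day 3 at 55.7, 69.5, 64.1 and 63.3 RPKM. It was at 49.2, 51.4, 49.0 and 41.5 RPKM on day 4 and ended at 89.6, 60.7, 47.1 and 26.6 RPKM. The day 0 libraries spread over a wider range than any of the days 1 to 4, with both X14 libraries above both X18 libraries. The log2 fold change was 0.89 ± 0.41 at its highest, on day 3 (SE, n = 4 per day; adjusted p = 0.15). It was 0.74 for day 2, 0.49 for day 4, 0.42 for day 6, 0.44 for day 7 and 0.59 for day 8, with adjusted p = 0.28, 0.41, 0.43, 0.40 and 0.25. All 8 neighbouring days in the order of mean level overlapped, from day 3 as the highest to day 5 as the lowest. Without the X14 libraries of day 0 Dnmt1 was called higher on day 2 (1.52), day 3 (1.68), day 4 (1.27), day 6 (1.20), day 7 (1.22) and day 8 (1.38), with adjusted p = 0.011, 0.0051, 0.026, 0.027, 0.025 and 0.012. It was also called on days 2 and 3 without all libraries labelled X14 double (1.03, adjusted p = 0.017, and 1.34, adjusted p = 0.0021). Both fits leave out the day 0 library labelled X14 double, whose X-linked balance goes against its label, so they are not separate results.

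In the step to day 5 Dnmt1 was called lower (−1.33, adjusted p = 0.024), and in the next step higher (1.26, adjusted p = 0.038). On day 5 the level was 5.15 RPKM in X14 double, 27.3 in X14 single, 30.3 in X18 double and 29.9 in X18 single, and all 4 lay under the 4 values of day 4 and under those of day 6 (41.1 to 50.0 RPKM). The lowest value rests on 25 reads in the shallowest library. Without this library the values were −0.71 (adjusted p = 0.18) and 0.64 (adjusted p = 0.29), so neither call remained. The first call was also lost without the whole X14 double (adjusted p = 0.13), X14 single (adjusted p = 0.075) or X18 double culture (adjusted p = 0.059), and the second without each of the same 3 cultures (0.59, 1.41 and 1.52; adjusted p = 0.25, 0.099 and 0.068).

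Uhrf1 was at 145, 74.0, 37.9 and 68.9 RPKM on day 0 (X14 double, X14 single, X18 double, X18 single). On day 3 the 4 cultures stood close together at 127, 122, 131 and 120.5 RPKM. The values of day 4 were 114, 88.4, 102 and 77.8 RPKM, and those of day 8 were 34.6, 64.3, 36.6 and 50.0 RPKM. All libraries of day 8 lay below all of day 4, whereas all 8 neighbouring days in the order of levels overlapped. Against day 0 no day was called. Its log2 fold change reached 0.78 ± 0.27 on day 3 (SE, n = 4 per day; adjusted p = 0.053), 0.57 on day 2 and 0.38 on day 4 (adjusted p = 0.20 and 0.33). At the end it was −0.70, where the adjusted p was 0.038 but the change was under 1. Without the X14 libraries of day 0 Uhrf1 was called higher on day 2 (1.08) and day 3 (1.29), with adjusted p = 0.0051 and 0.0010, and the value of day 8 became −0.19 (adjusted p = 0.62). Day 3 was also called without all libraries labelled X14 double (1.11, adjusted p = 0.0015), a fit that again leaves out the day 0 library of that label. In the step to day 5 Uhrf1 was at −0.91 (adjusted p = 0.020), under the fold limit. Without the X18 double culture that change was −1.01 (adjusted p = 0.039), and without the X14 double library of day 5 it was −0.69 (adjusted p = 0.096).

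In the step to day 5, 4 of the 5 genes were called, each of them lower, and Uhrf1 passed the test of the p-value alone. Over all genes 10.6% were called in either direction. The count was 2 without the X14 single culture, a fit for which the share of all genes is not given here. Other gene lists, described below, also dipped on day 5. Regulators of de novo methylation had a median sum of 3049, 1838 and 2923 RPM on days 4, 5 and 6. The S-adenosylmethionine list had 1200, 937 and 1385 RPM. Maintenance partners had 2398.5, 1549 and 1817 RPM, S phase genes 5637, 3818 and 4106 RPM, and genes of oxidation and repair 480, 302 and 351 RPM. Germline, fibroblast and neural lists rose from day 4 to day 5. The part of a shift across day 5 in these calls was not tested. Of the other steps, that to day 4 had 1 call (Dnmt3a, against 5.03% of all genes) and that to day 6 had 1 (Dnmt1, against 9.72%). None of the 5 was called in the step to day 2 (0.0342% of all genes), day 3 (0.185%), day 7 (0.89%) or day 8 (0.438%). At an unadjusted p under 0.05 limma gave 2, 3, 1 and 1 of the 5 genes in these 4 steps, against 8.58%, 5.69%, 12% and 9.39% of all genes, and voom called 0 in each. With the culture as a block 1 gene was called in the step to day 2, 1 in the step to day 3 and 2 in the step to day 4. The shares of all genes called in that fit are not given here.

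On day 8 against day 4, 4 of the 5 genes were called lower, when 9.01% of all genes were called lower, 15.7% higher and 24.7% in either direction. The log2 fold change was −3.70 ± 0.44 for Dnmt3l (SE, n = 4 per day; adjusted p = 4.7e-08) and −2.89 ± 0.40 for Dnmt3a (adjusted p = 7.6e-07). It was −2.85 ± 0.46 for Dnmt3b (adjusted p = 1.2e-05) and −1.07 ± 0.27 for Uhrf1 (adjusted p = 0.0027). Each of these was lower in 4 of 4 cultures. Uhrf1 came under the fold limit without the X14 double (−0.86) or X18 double culture (−0.94), with adjusted p = 0.0085 and 0.029. Dnmt1 was at 0.10 with a 95% interval from −0.74 to 0.94, higher in both X14 cultures and lower in both X18 cultures, and the sign turned without the X14 double culture (−0.15).

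The make-up of the methyltransferase RNA shifted with these courses. Of the summed RPKM of Dnmt1, Dnmt3a and Dnmt3b, Dnmt1 made up 64.5% to 79.0% on day 0 and 7.9% to 16.1% on day 4, and was back at 31.3% to 67.4% on day 8. Dnmt3b made up 12.5% to 27.2% on day 0, 75.6% to 84.1% on day 4 and 27.7% to 65.3% on day 8. Dnmt3a stayed between 3.2% and 9.4% in every library, and the ratio of Dnmt3b to Dnmt3a went from 1.47 to 3.65 on day 0 to 9.09 to 10.7 on day 4. The ranges of day 0 and day 4 did not overlap for the Dnmt1 share, the Dnmt3b share or this ratio. Uhrf1 stood at 1.67 to 3.16 times the RPKM of Dnmt1 on day 0 and at 0.386 to 1.88 times on day 8. These are levels of RNA and carry no test. They depend on the merged exon length, 16642 bases for Dnmt3a, 6304 for Dnmt1 and 5106 for Dnmt3b. Scaled to depth alone, Dnmt3a stood above Dnmt1 on day 4. Dnmt3a was at 421, 842, 420 and 790 RPM and Dnmt1 at 310, 324, 309 and 262 RPM (X14 double, X14 single, X18 double, X18 single).

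**Figure D3:**
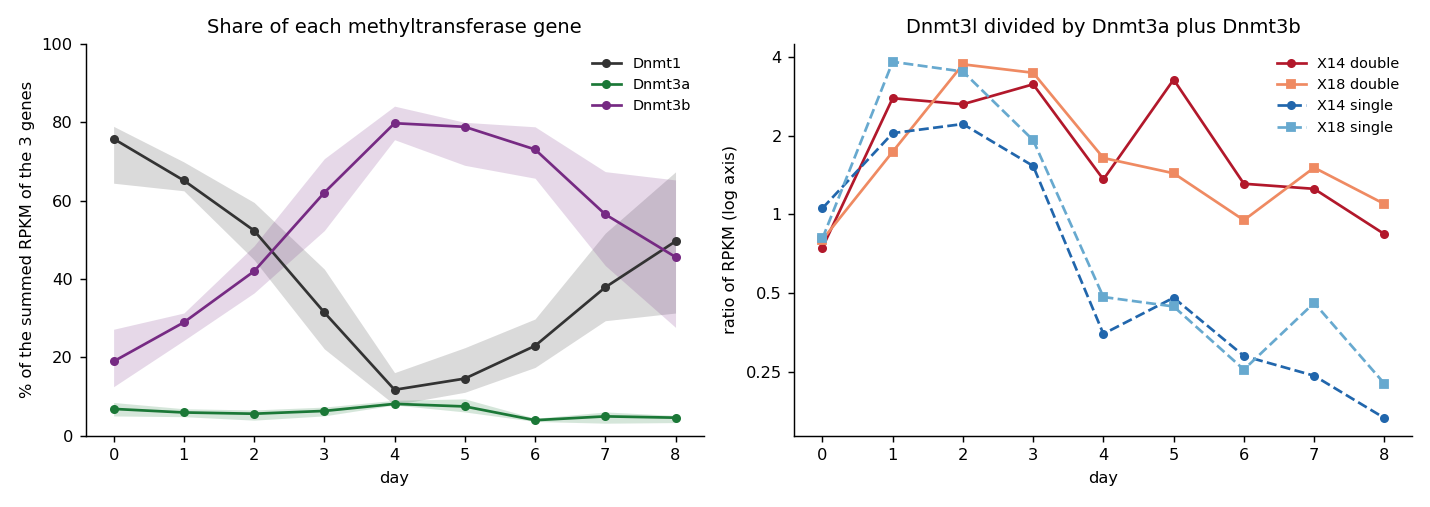
Left, share of Dnmt1, Dnmt3a and Dnmt3b in their summed RPKM (percent, vertical axis) by day, as the median (line) and range (band) of 4 libraries; Dnmt3b goes from 12.5% to 27.2% on day 0 to 75.6% to 84.1% on day 4. Right, ratio of Dnmt3l to Dnmt3a plus Dnmt3b (RPKM, log axis) in every culture; on days 4 to 8 the double cultures stand at 0.84 or above and the single cultures at 0.483 or below.

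The labels double and single were compared over days 1 to 8 with day and line as covariates (16 libraries a label). Of the 5 genes 3 passed at an adjusted p under 0.05, none with a log2 difference of 1 or more. Over all genes 22.6% passed, 9.76% higher in double and 12.8% lower. The libraries come from 4 cultures, 2 per label, so those of a culture on different days are not independent, and regrouping whole cultures could not give a two-sided exact p under 0.333. The correlation between libraries of a culture in this model was −0.025, and with culture as a random effect the same count of 3 passed. With 4 cultures and both line and label in the model, this fit cannot settle whether the libraries of a culture are independent.

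Dnmt3b had a log2 difference of double minus single of −0.90 ± 0.12 (SE; adjusted p = 3.7e-06), and double was the lower in 15 of the 16 pairs of same line and day. On day 3 it stood at 83.8 RPKM in X14 double against 222 in X14 single and at 78.9 in X18 double against 169 in X18 single, and on day 8 at 36.8 against 84.4 and 28.3 against 55.5 RPKM. The exception was X18 on day 1, with 17.0 RPKM in double and 14.6 in single. Within X14 the difference was −1.19 (adjusted p = 0.00030) and within X18 −0.60 (adjusted p = 0.013).

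Dnmt3a had a difference of −0.53 ± 0.17 (SE, log2; adjusted p = 0.021). Single was the higher in 8 of 8 pairs on days 1 to 4, by 2.00-fold in X14 and 1.88-fold in X18 on day 4, and in 4 of 8 pairs on days 5 to 8. The X18 pair of day 1 was nearly equal, at 2.82 RPKM in double and 2.85 in single (47 and 44 reads). The change of the label difference from days 1 to 4 to days 5 to 8 was 0.83 ± 0.30 with an adjusted p of 0.11, and 1.04 (adjusted p = 0.0058) without the X14 double library of day 5. The label difference itself lost the call without day 2 (−0.51), day 3 (−0.41) or day 4 (−0.47), with adjusted p = 0.051, 0.12 and 0.089, and within each line alone (X14 −0.73, adjusted p = 0.060; X18 −0.33, adjusted p = 0.30).

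Dnmt3l differed between the labels in opposite directions early and late. On days 1 to 3 single was the higher in 6 of 6 pairs, with double minus single from −1.07 to −0.26 (log2). On days 4 to 8 double was the higher in 10 of 10 pairs, by 0.74 to 1.66. The split after day 3 lies where the sign turned in these data. By the periods of the test below, single was the higher in 6 of 8 pairs on days 1 to 4 and double in 8 of 8 on days 5 to 8. At day 3 the level was 289 and 301 RPKM in the double cultures and 373 and 360.1 in the single cultures, and a day later 365 and 418 against 206 and 233 RPKM. At day 7 it was 76.8 and 91.2 against 24.3 and 33.1 RPKM. The peak was on day 4 in both double cultures and on day 3 in both single cultures. The label difference of days 5 to 8 minus that of days 1 to 4 was 1.52 ± 0.22 (SE; adjusted p = 6.1e-05), when 5.91% of all genes passed. Dnmt3l alone of the 5 genes passed this test, and leaving out any of the days kept it, with values from 1.26 (without day 1) to 1.87 (without day 4).

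The mean difference over days 1 to 8, 0.54 ± 0.18 in favour of double (adjusted p = 0.026), thus joins periods of opposite sign, and it lost the call without each of the days 4 to 8 (0.39 to 0.50, adjusted p = 0.073 to 0.13) and within each line alone (X14 0.52, adjusted p = 0.25; X18 0.56, adjusted p = 0.19). The last step to day 4 differed between double and single by 1.15 ± 0.25, with an unadjusted p of 0.00011 and an adjusted p of 0.098, so the turn at that step did not pass over all genes, of which 0.0616% passed. None of the 5 passed this test in limma or in voom, where the adjusted p of Dnmt3l was 0.066. The ratio of Dnmt3l to Dnmt3a plus Dnmt3b was 1.36 and 1.64 in the double cultures on day 4 against 0.349 and 0.483 in the single cultures, and 0.84 and 1.10 against 0.166 and 0.225 on day 8.

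**Figure D4:**
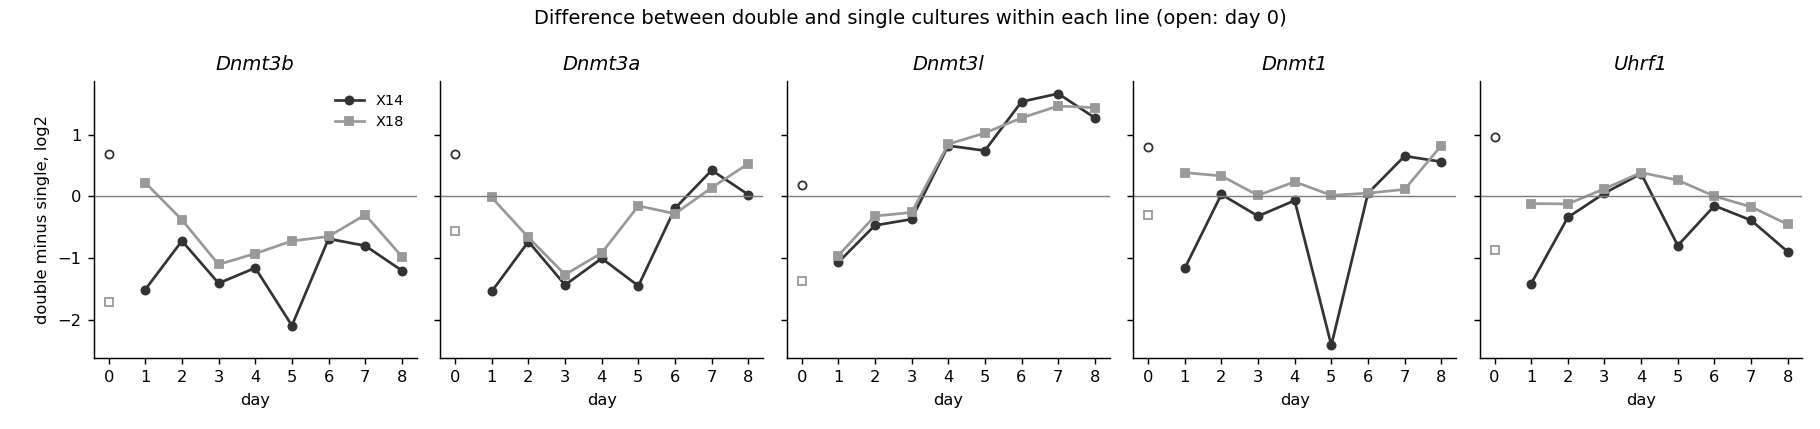
Difference of double minus single (log2, vertical axis) by day within X14 (black circles) and X18 (grey squares), with day 0 as open symbols. Dnmt3l passes from below 0 on days 1 to 3 to above 0 on days 4 to 8 in both lines, and Dnmt3b is below 0 in 15 of 16 pairs on days 1 to 8.

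Uhrf1 was at −0.23 ± 0.11 in double against single (adjusted p = 0.13), lower in 10 of 16 pairs, and passed without day 4 (−0.31, adjusted p = 0.048). Dnmt1 was at −0.04 with a 95% interval from −0.43 to 0.34 (adjusted p = 0.91), although double was the higher in 12 of 16 pairs. Its lowest pair, −2.40, is the X14 pair of day 5, and without that double library the difference was 0.13 (adjusted p = 0.42). Between the lines X18 and X14 none of the 5 genes passed, none reached an unadjusted p under 0.05 in limma and none passed in voom, when 0.0205% of all genes passed. Leaving out day 5 gave 1 gene, with no share of all genes given for that fit.

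Cell state markers also differed between the labels over the same libraries. Over all genes 9.76% passed higher in double and 12.8% lower. Naive markers were higher in double in 7 of 8 genes (4 in voom), with a summed level of 104 to 1971 RPM (median 278) in double and 55.9 to 2732 RPM (median 113) in single. Klf2 (1.31), Tcl1 (1.36) and Tbx3 (1.11) were among them. Primed markers were lower in double in 4 of 7 genes (Dusp6, Zic2, Sox4 and Pou3f1), with 79.6 to 791 RPM (median 261) against 85.1 to 1173 RPM (median 435). Trophoblast markers were higher in double in 3 of 5 tested genes (Tfap2c, Hand1, Ascl2), with 40.3 to 554 RPM (median 148) against 19.8 to 245 RPM (median 78.8). The part of these markers in the differences of the methyltransferase genes was not tested.

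Genes around the 5 were read from lists by role, each beside the median of all genes, which was 0.12 for day 4 against day 0, 0.10 for day 8 against day 4 and −0.04 for double minus single. Of all genes 12.2% were called higher and 6.4% lower on day 4 against day 0. On day 8 against day 4 these shares were 15.7% and 9.01%. In double minus single 9.76% passed higher and 12.8% lower. Partners of maintenance methylation (10 genes, among them the remodeller Hells, its activator Cdca7 and the sliding clamp Pcna) had no call on day 4 against day 0 in limma, with 4 at an unadjusted p under 0.05 (37.4% of all genes), 1 called by voom and a median of 0.18. Hells passed the p-value at 0.74, under the fold limit. By day 8 against day 4 the median was −0.53 and 2 were called lower, Hells (−2.12, adjusted p = 1.4e-09) and Cdca7 (−1.14, adjusted p = 0.0011). In double against single 5 were lower (Cdca7l −0.87, Cdca7 −0.48, Hells −0.29, Lig1 −0.26 and Hdac2 −0.25) and Uhrf2, a relative of Uhrf1, was higher (0.35, adjusted p = 0.042).

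Of 11 regulators and recruiters of de novo methylation, 3 were called lower on day 4, Prdm14 (−4.86), which represses Dnmt3b in naive cells, Dppa3 (−2.56), which keeps Uhrf1 from chromatin, and the imprint protector Zfp57 (−1.39). The H3K9 methyltransferases Ehmt2 (1.88) and Ehmt1 (1.16) were called higher, and the median was 0.44. Prdm14 stood at 29.0 to 82.0 RPM in the day 0 libraries, at 6.83 to 53.0 RPM by day 3 and at 0 to 6.05 RPM by day 4. Between days 4 and 8 Trim28 (−1.24) and Zfp57 (−1.22) were called lower and Dusp9 (1.87) higher, with a median of −0.37. Between the labels Prdm14 (1.62), the X-linked ERK phosphatase Dusp9 (1.47) and Dppa3 (1.32) were higher in double, and Trim28 (−0.46), Zfp57 (−0.40) and Ehmt1 (−0.29) lower, with a median of −0.16.

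Among 7 genes of oxidation and repair of 5-methylcytosine, Tet3 (2.58) and Tdg (1.21) were called higher and Tet2 (−1.74) lower on day 4, with a median of 0.03. Tet1 (−2.40) and Tet2 (−1.30) were called lower on day 8 than on day 4 (median −0.65). Apex1 (−0.34) was the only one of the 7 to pass between the labels, lower in double. Of 7 readers of methylated CpG, Mbd3 (1.08) was called higher on day 4 (median −0.08), and on day 8 over day 4 Zbtb4 (3.91), Mbd2 (2.03) and Mbd1 (1.61) were among those called higher. The X-linked reader Zbtb33 (0.78) was higher in double. Of 9 genes of the S-adenosylmethionine cycle, which supplies the methyl group, the median was 0.12 on day 4 against day 0, and Ahcy (−1.27), Mat2a (−1.18) and Amd1 (−1.18) were called lower on day 8 than on day 4 (median −0.65). Mthfd1 (−0.53), Mtr (−0.47) and Amd1 (−0.33) were lower in double.

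Germline genes whose promoters are known to be silenced by DNA methylation (8 genes) include Dazl, an RNA-binding protein of germ cells, called lower on day 4 than on day 0 (−3.05) and lower again on day 8 (−3.90 against day 4). Mael, of the piRNA pathway, was called higher on day 4 (1.89), and both Mael (−3.02) and Slc25a31 (−2.55) were called lower on day 8 than on day 4. The medians were −0.14 and −0.99, the latter −1.34 with Asz1, at 0 reads on day 8, set at its bound of 3 reads over the group. In double against single 6 of 8 were higher, from 0.81 for Tex101 to 2.84 for the X-linked Taf7l, with a median of 1.62 and none lower. Over all genes 9.76% were higher.

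S phase genes (17 genes, the Mcm helicase subunits among them) had no call on day 4 in limma or voom, with 8 at an unadjusted p under 0.05, against the same 37.4% of all genes, and a median of 0.37. On day 8 against day 4, 6 were called lower, Rrm2 (−1.46), Ccne1 (−1.24), Tyms (−1.19), Mcm2 (−1.15), Mcm3 (−1.13) and Mcm5 (−1.09), with a median of −0.85. Over all genes 9.01% were called lower. The summed level was 5497 to 5818 RPM at day 4 and 2686 to 4114 RPM at day 8. Uhrf1 had −1.07 and Dnmt1 0.10 over the same interval, and a link of either gene to the S phase genes was not tested. In double against single 5 were lower and none higher (median −0.14), when 12.8% of all genes were lower.

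Without the X14 libraries of day 0 the counts of day 4 against day 0 differed. Over all genes 21.4% were then called higher and 8.38% lower, with a median of 0.24. Maintenance partners then had 1 gene called higher (Cdca7l) and a median of 0.53. Regulators and recruiters had 5 called higher (Ehmt1, Ehmt2, Trim28, Nsd1 and Nsd2) and 3 lower, with a median of 1.10. S phase genes had 4 called higher (Mcm2, Mcm6, Cdt1 and Mki67) and 1 lower (Tyms), with a median of 0.68. The call of Tet2 was lost, that of Mael too, and Ahcyl1, of the S-adenosylmethionine list, was called higher.

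**Figure D5:**
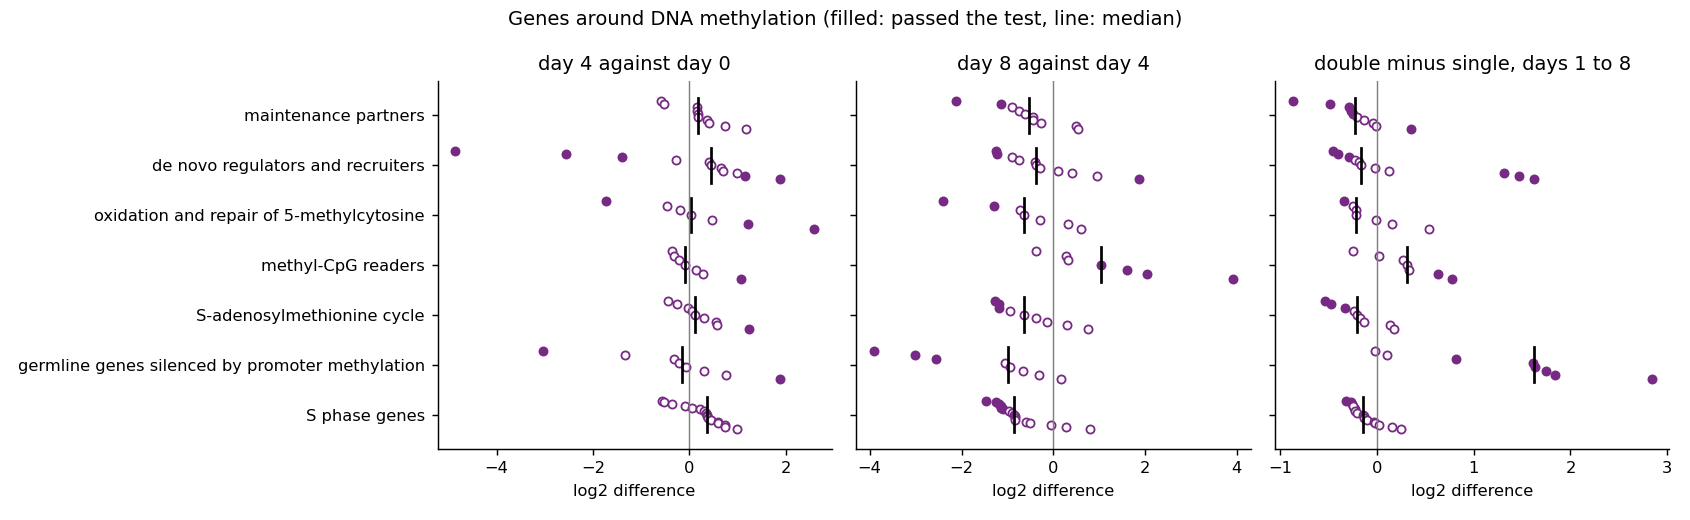
Log2 difference (horizontal axes) of each tested gene of 7 lists (rows) for day 4 against day 0, day 8 against day 4 and double minus single, with filled points for genes that passed the test (with a log2 change of at least 1 in the first and second panels) and a black line at the list's median. The germline list has a median of −0.99 from day 4 to day 8 and of 1.62 for double minus single.

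Genes with the most similar course were taken by Pearson correlation of log2 levels over the 36 libraries, among the 9403 genes whose mean reached 10 RPM. The libraries share days and cultures, and the correlations are a description. For Dnmt3b they were Mest (r = 0.95), Gm98 (0.95) and Slc7a7 (0.92), for Dnmt3a Slc38a2 (0.91), Gldc (0.90) and Dnmt3b itself (0.89), and for Dnmt3l its overlapping neighbour Aire (0.88), Rab27a (0.86) and Utf1 (0.85). For Uhrf1 they were Smpd4 (0.93), the helicase subunit Mcm2 (0.92) and Trim28 (0.92), and for Dnmt1 Cep170 (0.91), Arf6 (0.91) and Rbm6 (0.90). Among the 5 genes the highest r after Dnmt3a with Dnmt3b was 0.72, for Dnmt3a with Dnmt3l, and Dnmt1 with Uhrf1 had 0.57.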

How the data were processed

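RNA was sequenced in 36 libraries of Xmas mESCs (TruSeq, 75 bp single-end). In the study's pipeline, trim_galore was used for trimming, tophat or hisat2 for alignment to mm10 and SeqMonk for quantification, and the submitters' processing notes list bcl2fastq and TopHat2 2.0.12. The annotation version, and whether counting used the strand, are not given in the sources used here. The authors deposited log2 values per gene and library. The table is named as log CPM, but its lowest values differ between genes by exon length, so the unit was taken as log2 RPKM, with 0.9 read written for a gene lacking reads. Whole reads were recovered for 100% of genes (tolerance 0.001 read) and gave depth and RPM. Of the value columns 0 were left unmapped.

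Tests used limma-trend (limma 3.58.1, R 4.3.3), two-sided, over 14612 genes with 1 RPM or more in at least 4 libraries, and Benjamini-Hochberg adjustment over all of them. Day fits had day as the only factor. Label fits took days 1 to 8 with day and line. Fold changes of genes lacking reads depend on depth through the 0.9 read. Alternatives were quantile and 75th percentile scaling, no filter, a mean of 10 RPM or more, log2(RPKM + 0.5), voom on the recovered reads, the culture as a block or random effect, only the days compared, and each culture, day or line left out. Chosen after the data were seen were day 1 as the reference and fits without the X14 libraries of day 0 or the X14 double library of day 5. The split of label pairs after day 3 and the label comparison of the step to day 4 were not among the planned comparisons either. Replicate numbers pair libraries because each number is the same line and label on every day. In X14 on day 0 the X-linked balance goes against the labels, so this pairing is uncertain there. Fits against day 0 with the culture as a block, or without an X14 culture, rest on those labels. Deviations from the day means correlated at 0.13 on average within a number and at −0.04 between numbers. The tests were tried on simulated data first. Limits set by a count of 3 reads, 1.04 to 3.90 RPM per library, cover counting error only.

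The 5 genes and all gene lists were chosen with earlier results of these data known. The text names list members and, for each of the 5, the 3 genes of highest correlation. Nsd2, Map2 and Plet1 stand in the table as Whsc1, Mtap2 and 1600029D21Rik. Promoter windows were matched by symbol (5 of 5 genes). Results for some list members and for a promoter sequence are not reported here.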

Additional observations from a re-analysis of the deposited data

Results flagged for a closer look

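In groups of 4 libraries, 45 of which were examined, 4 had a library set apart from the other 3 by Dixon's test at the 95% level. Chance flags about 1 group in 20. For Dnmt1 these were the X14 double library on day 5 (5.15 RPKM, against 27.3 to 30.3 in the other cultures) and on day 7 (65.7 RPKM, against 38.7 to 41.9). For Dnmt3a they were the X14 single library on day 1 (7.11 RPKM, against 2.45 to 2.85) and the X14 double library on day 5 (4.37 RPKM, against 11.4 to 12.7). The X14 double library of day 5 is the shallowest of the series with 612740 reads in genes.

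The label difference of Dnmt3l differed between days 5 to 8 and days 1 to 4 by 1.52 on the log2 scale, by the interaction test of the report (limma, adjusted p = 6.1e-05). For Dnmt1, both X14 cultures were higher and both X18 cultures lower on day 8 than on day 4, the mean changes of the lines lying 0.90 apart on the log2 scale. This difference between the lines was not tested.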

How the results depend on the processing

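The changes of Dnmt3b and Dnmt3a on day 4 against day 0 (4.35 to 6.05 and 3.25 to 3.93 over the 15 alternatives of each), those of Dnmt3b, Dnmt3a and Dnmt3l on day 8 against day 4, the label difference of Dnmt3b (−1.19 to −0.60) and the period difference of Dnmt3l (1.26 to 2.16) kept direction and call in every alternative run. Dnmt3l on day 4 against day 0 ranged from 2.56, with day 1 as the reference, to 5.59. With day 1 as the reference, Dnmt3l on days 7 and 8 turned to −0.0284 and −1.14, the latter with an adjusted p of 0.035. Dnmt1 changed sign on day 8 against day 4 (−0.15 to 0.35 when each culture was left out), and in double minus single with voom (0.00095), without day 1 (0.00796), without day 5 (0.12), without the X14 double library of day 5 (0.13) and in X18 alone (0.25); none of these passed the test. The cause of these changes was not tested.

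The numbers of the 5 genes called also moved. The share of all genes called can move too. Without the X14 libraries of day 0 it went from 2.96% to 23.2% on day 2 against day 0. For the other alternatives, here and above, this share is not given. Their counts are therefore not read as results about the 5 genes. With the libraries of other days out of the fit they were 0 on day 1, 1 on day 2 and 1 on day 8 against day 0, 1 in the step to day 3, 0 in the steps to days 4 and 6 and 1 in the step to day 7; the cause was not tested. With quantile scaling or voom they were 0 on day 1, 1 on day 8 and 0 in the step to day 6, and voom gave 2 in the step to day 4. With 75th percentile scaling they were 1 on day 8 and 2 in the step to day 4. Without the X14 libraries of day 0 they were 2 on day 1, 5 on days 2 and 3, 4 on day 7 and 2 in the step to day 4, and without the X14 double library of day 5 they were 2 in the step to day 4 and 0 in that to day 6. With day 1 as the reference they were 0 on day 2 and 1 on day 7. With each culture left out they ranged from 0 to 1 on day 1, 1 to 3 on day 2, 3 to 5 on day 3, 0 to 1 in the steps to days 4 and 6, 2 to 4 in the step to day 5, and 1 to 2 on day 8. For double minus single 1 passed over all 9 days, 1 in X14 alone and 1 in X18 alone. For the period difference 2 passed with voom, 2 without day 5 and 2 without the X14 double library of day 5. For X18 minus X14, 1 passed without day 5.

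With the culture as a replicate block the pairing gave 1 call in the steps to days 2 and 3 and 2 in the step to day 4, and changed no other count by over 1.5 times. Of the listed genes, voom called 1 of oxidation and repair lower on day 8 against day 4 where limma called 2.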
